A study of Sus scrofa with 22 samples.

Results

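The creatine genes described here are GAMT, CKM and CKMT2. They were taken as every probe set of a porcine expression array annotated to one of these symbols alone. This gave 3 probe sets, 1 for each of the 3 genes, out of 10069 probe sets with a single symbol, which stood for 6765 genes. No second probe set on the array checks any of the 3.

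Creatine is made in a short chain of reactions: GATM joins arginine and glycine into guanidinoacetate, and GAMT methylates guanidinoacetate to creatine with S-adenosylmethionine as the methyl donor. The product enters muscle fibres through the transporter SLC6A8. Inside the fibre, creatine kinases move phosphate between ATP and creatine, so that phosphocreatine buffers ATP during contraction: CKMT2 sits between the mitochondrial membranes, where ATP leaves the matrix, and CKM works in the cytosol and on the M-band of the sarcomere, beside the ATPases that spend it.

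The samples were 22 pigs at 4 ages: fetuses at 94 days post conception (94 dpc, 6 animals), and offspring at 1 day (1 dpn, 6 animals), 28 days (28 dpn, 6 animals) and 188 days (188 dpn, 4 animals) after birth. All were offspring of German Landrace gilts that received an adequate protein diet in gestation, so the comparison is between ages and no effect of diet can be read from it. Per the design text the offspring of 3 gilts were taken at each stage. No label used here ties an animal to its gilt, so p-values treat animals as independent and are too small if littermates resembled each other. Each animal gave 1 array, and every value is a signal intensity scaled so that the trimmed mean of each array was 500.

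The sample labels named liver and the series title named muscle. Of 10 marker genes of skeletal muscle fibres, 9 were measured, and all 9 lay above background on every array, where background is a signal of 69.7 set from control probe sets with no target in the sample. Their summed signal ranged over 237532 to 312403 at 94 dpc, 286200 to 403423 at 1 dpn, 560301 to 641480 at 28 dpn and 522156 to 550962 at 188 dpn. Of 12 hepatocyte markers, 11 were measured and 1, APOA1, lay above background on every array. Their sum ranged over 7919 to 53418 at 94 dpc, 2403 to 10427 at 1 dpn, 2481 to 11357 at 28 dpn and 1890 to 6229 at 188 dpn. By these markers the arrays read skeletal muscle, which goes against the tissue label. In bulk tissue, fewer cells of a type and less RNA per cell cannot be told apart.

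At 1 dpn the arrays were not alike in 1 of 2 control genes that bear on RNA quality. The ratio of the 5′ to the 3′ control probe set of GAPDH, which falls when transcripts are truncated, was 1.14 and 1.15 on 2 of the 1 dpn arrays (replicates 1 and 6). It was 0.332, 0.223, 0.261 and 0.14 on the other 4 (replicates 2 to 5), and it ranged over 0.731 to 1.26 at the other 3 stages. The same ratio of actin did not separate them: it was 0.899 to 1.05 on the 4 and 1.23 and 0.995 on replicates 1 and 6, against 0.998 to 1.12 at 94 dpc. By the GAPDH ratio alone, the 2 are called the 1 dpn arrays with even 5′ signal below. The 4 are called the arrays with low 5′ signal. The 1 dpn signals of GAMT, CKMT2 and CKM are given for both kinds, and those of most other genes over all arrays only. Array weights, which fall as an array lies further from its stage mean, were 0.274 and 0.387 on replicates 1 and 6. These were the lowest of all arrays, against 0.566 to 0.841 on replicates 2 to 5. The 4 arrays with low 5′ signal outnumber the 2 in that stage mean, so the weights cannot tell which kind is the more reliable. The name does not rank them either.

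All 3 genes lay above background on all 22 arrays and differed over the 4 stages in limma's F test, as did 51.4% of all 23999 probe sets tested. The adjusted p was 5.9e-12 for GAMT, 6.6e-13 for CKMT2 and 3.8e-05 for CKM. Their courses differed: GAMT was lowest at 1 dpn and highest at 188 dpn, CKMT2 was lowest in the fetus, and CKM was bright at every stage. Changes below are differences of mean log2(signal + 16), later stage minus earlier stage, and folds are on that scale. A change was called at an adjusted p under 0.05 by limma with Benjamini-Hochberg adjustment over all probe sets.

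**Figure D1:**
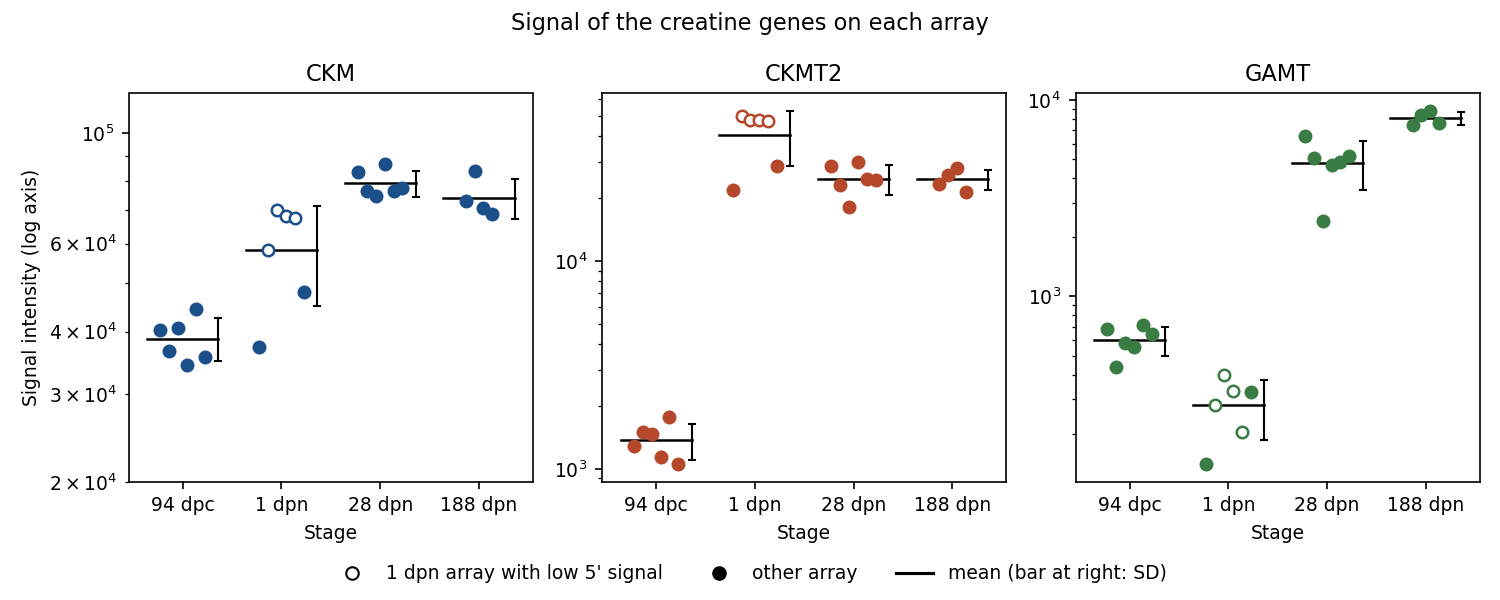
Signal intensity of CKM, CKMT2 and GAMT on each of the 22 arrays, on log axes that differ between panels, by stage from 94 dpc to 188 dpn. Points are animals, horizontal lines are stage means, the bar at the right of each line is the SD, and open circles are the 4 arrays at 1 dpn with low 5′ signal. CKMT2 lay between 1054 and 1780 at 94 dpc and at 18238 or more on every later array, and the open circles of CKM and CKMT2 lie above the filled ones of the same stage.

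GAMT, the last enzyme of creatine synthesis, fell around birth and then rose over the suckling period and beyond. At 94 dpc its signal ranged over 437 to 714 with a median of 612 (mean 601 ± 101, SD, n = 6). At 1 dpn it ranged over 140 to 399 with a median of 304 (280 ± 93.9, SD, n = 6). At 28 dpn it ranged over 2434 to 6584 with a median of 4979 (4806 ± 1344, SD, n = 6). The 4 animals at 188 dpn read 7490, 8413, 8774 and 7630 (8077 ± 617, SD, n = 4). No value of any stage lay within the range of another, and the order of the stages was 1 dpn, 94 dpc, 28 dpn and 188 dpn, from low to high.

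Between birth and 28 days GAMT had one of the largest rises of all probe sets. At 28 dpn against 1 dpn it was 16.4-fold higher (log2 4.04, SE 0.23, adjusted p = 1.1e-10), which ranked 2 among the rises of the 23999 probe sets. In that step 22.3% of probe sets were called, 13.9% higher and 8.39% lower. At 1 dpn against 94 dpc GAMT was 2.16-fold lower (log2 -1.11, SE 0.23, adjusted p = 0.000804), in a step in which 32.7% of probe sets were called, 10.9% higher and 21.7% lower. Both results held on the 1 dpn arrays with even 5′ signal alone, whose GAMT signals were 140 and 327, against 205 to 399 on the arrays with low 5′ signal. With those 2 arrays GAMT changed by log2 4.33 at 28 dpn against 1 dpn (adjusted p = 2.7e-07) and by log2 -1.4 at 1 dpn against 94 dpc (adjusted p = 0.00333).

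The later rise of GAMT was smaller and less secure. At 188 dpn against 28 dpn it was 1.74-fold higher (log2 0.80, SE 0.26, 95% interval 0.26 to 1.34, adjusted p = 0.0478), in a step in which 11.8% of probe sets were called, 3.65% higher and 8.2% lower. The change kept its direction when each animal was left out in turn, with log2 values of 0.62 to 0.91. The call was lost in 9 of those 10 fits, every one but that without replicate 1 at 28 dpn (0.91, adjusted p = 0.0333), and the adjusted p reached 0.119. The lowest change, 0.62, was found without replicate 3 at 28 dpn, whose signal of 2434 stood apart from the other 5 animals at 4679 to 6584. Over the whole period GAMT was 13.3-fold higher at 188 dpn than at 94 dpc (log2 3.73, SE 0.26, adjusted p = 5.2e-10), where 36.2% of probe sets were called, 13.6% higher and 22.5% lower.

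GAMT is strongly expressed in liver and is also active in pancreas, so markers of both tissues are given beside it. The summed hepatocyte signal, given above, was highest at 94 dpc, and APOA1 averaged 8823, 2314, 2174 and 826 over the 4 stages in order of age. ALB averaged 291, 375, 873 and 904, with a median of 232 over the 22 arrays. Of 8 markers of exocrine pancreas 4 were measured, with sums of 2845 to 13338 at 94 dpc, 3783 to 20309 at 1 dpn, 6423 to 10527 at 28 dpn and 11714 to 17606 at 188 dpn. Most of that sum was AMY2, which averaged 7555, 6956, 7624 and 14941 over the stages in order of age and so, like GAMT, was lowest at 1 dpn and highest at 188 dpn. CPA1 averaged 1472 at 1 dpn, where GAMT was lowest, against 380, 144 and 150 at 94 dpc, 28 dpn and 188 dpn. The part of such cells in the GAMT signal was not tested.

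CKMT2, the mitochondrial creatine kinase of striated muscle, appeared at a high level between the fetal stage and the first day after birth. At 94 dpc its signal ranged over 1054 to 1780 with a median of 1384 (mean 1376 ± 266, SD, n = 6). At 1 dpn it ranged over 21958 to 49827 with a median of 47537 (40585 ± 12036, SD, n = 6). At 28 dpn it ranged over 18238 to 30118 with a median of 24620 (24909 ± 4208, SD, n = 6). The 4 animals at 188 dpn read 23421, 25887, 27951 and 21496 (24689 ± 2821, SD, n = 4). Every fetal value lay below every postnatal one, whereas the ranges of the 3 postnatal stages overlapped.

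At 1 dpn against 94 dpc CKMT2 was 28.3-fold higher (log2 4.82, SE 0.21, adjusted p = 1.2e-12). This ranked 2 among the rises of that step. On the 1 dpn arrays with even 5′ signal alone the change was log2 4.20 (SE 0.23, adjusted p = 9.2e-09). At 188 dpn against 94 dpc CKMT2 was 17.9-fold higher (log2 4.16, SE 0.23, adjusted p = 2.5e-11).

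The signal of CKMT2 at 1 dpn differed between the arrays split by the GAPDH ratio. It was 21958 and 28712 on the arrays with even 5′ signal and 47145 to 49827 on those with low 5′ signal. With all 6 arrays, CKMT2 was 1.58-fold lower at 28 dpn than at 1 dpn (log2 -0.66, SE 0.21, adjusted p = 0.0242). With only the 2 even arrays at 1 dpn the change was -0.03 (SE 0.23, adjusted p = 0.953), and with the GAPDH ratio as a covariate it was -0.18 (SE 0.22, adjusted p = 0.642). Neither of these passed the test. The call was also lost without replicate 2, 3 or 4 at 1 dpn or replicate 3 at 28 dpn, where the change lay between -0.60 and -0.57 and the adjusted p reached 0.0602. At 188 dpn against 28 dpn the difference of CKMT2 was 0.00 (SE 0.23, 95% interval -0.48 to 0.48, adjusted p = 0.998). Changes within that interval could not be told from no change with 4 and 6 animals. Larger ones could also miss the call: SLC6A8, at 0.60 in the same step, did (SE 0.23, adjusted p = 0.0973).

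CKM, the cytosolic creatine kinase of muscle, was among the brightest transcripts of the array at every age. Its probe set ranked between 7 and 54 of the 23999 on each array and had a mean signal of 61521. The highest signal on any array was 111759.6, and whether signals this bright understate changes of CKM was not tested. At 94 dpc its signal ranged over 34294 to 44491 with a median of 38485 (mean 38685 ± 3829, SD, n = 6). At 1 dpn it ranged over 37323 to 70069 with a median of 62788 (58191 ± 13177, SD, n = 6). At 28 dpn it ranged over 74897 to 86789 with a median of 77145 (79342 ± 4741, SD, n = 6). The 4 animals at 188 dpn read 72927, 83880, 70693 and 68666 (74041 ± 6786, SD, n = 4). The fetal range overlapped that of 1 dpn and lay below both later stages, and the ranges at 28 dpn and 188 dpn overlapped.

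CKM was 1.92-fold higher at 188 dpn than at 94 dpc (log2 0.94, SE 0.17, 95% interval 0.58 to 1.30, adjusted p = 0.000159). At 1 dpn against 94 dpc it was 1.47-fold higher (log2 0.56, SE 0.16, adjusted p = 0.00764). At 28 dpn against 1 dpn it was 1.39-fold higher (log2 0.48, SE 0.16, adjusted p = 0.0287). At 188 dpn against 28 dpn the difference was -0.10 (SE 0.17, 95% interval -0.46 to 0.26, adjusted p = 0.784), which did not pass the test.

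The timing of the CKM change within the first month followed the 1 dpn arrays used. Its signal at 1 dpn was 37323 and 47929 on the arrays with even 5′ signal and 58158 to 70069 on those with low 5′ signal. With the even arrays alone, the change at 1 dpn against 94 dpc was 0.13 (SE 0.17, adjusted p = 0.626) and did not pass the test. With the same arrays, CKM was higher at 28 dpn than at 1 dpn by log2 0.91 (SE 0.17, adjusted p = 0.00114). With all arrays, the call at 28 dpn against 1 dpn was lost without replicate 1 or 6 at 1 dpn or replicate 1 or 4 at 28 dpn, where the change lay between 0.36 and 0.46 and the adjusted p reached 0.0565.

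The size of the CKM change also depended on how arrays were scaled. After quantile normalization CKM changed by -0.02 at 1 dpn against 94 dpc (adjusted p = 0.922), by 0.24 at 28 dpn against 1 dpn (adjusted p = 0.119) and by 0.23 at 188 dpn against 94 dpc (adjusted p = 0.142), and its F test gave an adjusted p of 0.0994. When the median of every array was set to one value, the change at 188 dpn against 94 dpc was 1.21 (adjusted p = 4.8e-06). Summed markers of fast and slow fibres, given above, were likewise highest at 28 dpn and 188 dpn, and their part in the CKM signal was not tested.

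**Figure D2:**
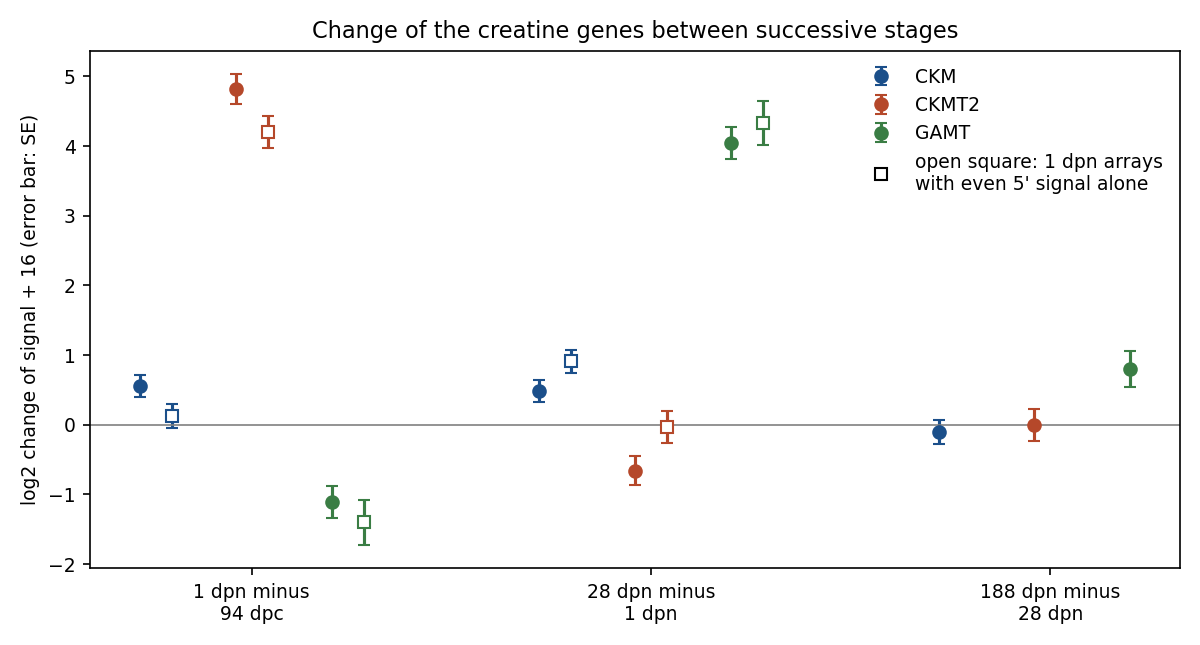
Change of CKM, CKMT2 and GAMT between successive stages, as the difference of mean log2(signal + 16), later minus earlier stage, with SE bars. Filled circles use all arrays and open squares only the 2 arrays with even 5′ signal at 1 dpn. The 2 estimates keep their sign and call for GAMT in both steps and for CKMT2 at 1 dpn minus 94 dpc (4.82 and 4.20). For CKMT2 at 28 dpn minus 1 dpn (-0.66 and -0.03) a shift of like size ends the call. The call of CKM also ends at 1 dpn minus 94 dpc (0.56 and 0.13) and is kept at 28 dpn minus 1 dpn (0.48 and 0.91).

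Differences between genes within an array are barely moved when all values of the array are multiplied by 1 factor, as in scaling to a mean or median, and they were used to describe the genes relative to one another. They compare changes only, since signals of different probe sets are not comparable as levels, and they were not tested. Quantile normalization does move them: at 1 dpn against 94 dpc the change of GAMT minus CKM was -0.76 with it and -1.67 without, and that of CKMT2 minus CKM was 4.72 with it and 4.26 without. The log2 difference of CKMT2 minus CKM averaged -4.81 ± 0.18 at 94 dpc (SD, n = 6), -0.55 ± 0.20 at 1 dpn (SD, n = 6), -1.69 ± 0.19 at 28 dpn (SD, n = 6) and -1.59 ± 0.17 at 188 dpn (SD, n = 4). Relative to CKM, CKMT2 was thus higher by 4.26 at 1 dpn than at 94 dpc, with no overlap between animals.

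Relative to CKM, CKMT2 was also lower at 28 dpn than at 1 dpn, by 1.14, with no overlap. This difference ranged over -2.04 to -1.53 at 28 dpn and was -0.76 and -0.74 on the 1 dpn arrays with even 5′ signal, against -0.55 to -0.22 on those with low 5′ signal. The difference of CKMT2 minus CKM was therefore highest at 1 dpn on both kinds of array. On the even arrays the CKMT2 signal itself changed by -0.03 at 28 dpn against 1 dpn (adjusted p = 0.953) and did not pass the test. CKM rose by 0.91 there (adjusted p = 0.00114). The CKMT2 change had an SE of 0.23, and the part of each gene in the lower difference was not tested. Between 28 dpn and 188 dpn the values of CKMT2 minus CKM overlapped.

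The difference of GAMT minus CKM averaged -5.98 ± 0.21 at 94 dpc, -7.65 ± 0.39 at 1 dpn, -4.10 ± 0.45 at 28 dpn and -3.19 ± 0.14 at 188 dpn (SD, n = 6, 6, 6 and 4). No 2 successive stages overlapped in it. The difference of GAMT minus CKMT2 averaged -1.17 ± 0.37 at 94 dpc, -7.10 ± 0.46 at 1 dpn, -2.41 ± 0.31 at 28 dpn and -1.61 ± 0.08 at 188 dpn. Synthesis enzyme and mitochondrial kinase thus moved in opposite directions around birth, and the difference between them at 188 dpn overlapped that at 94 dpc.

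**Figure D3:**
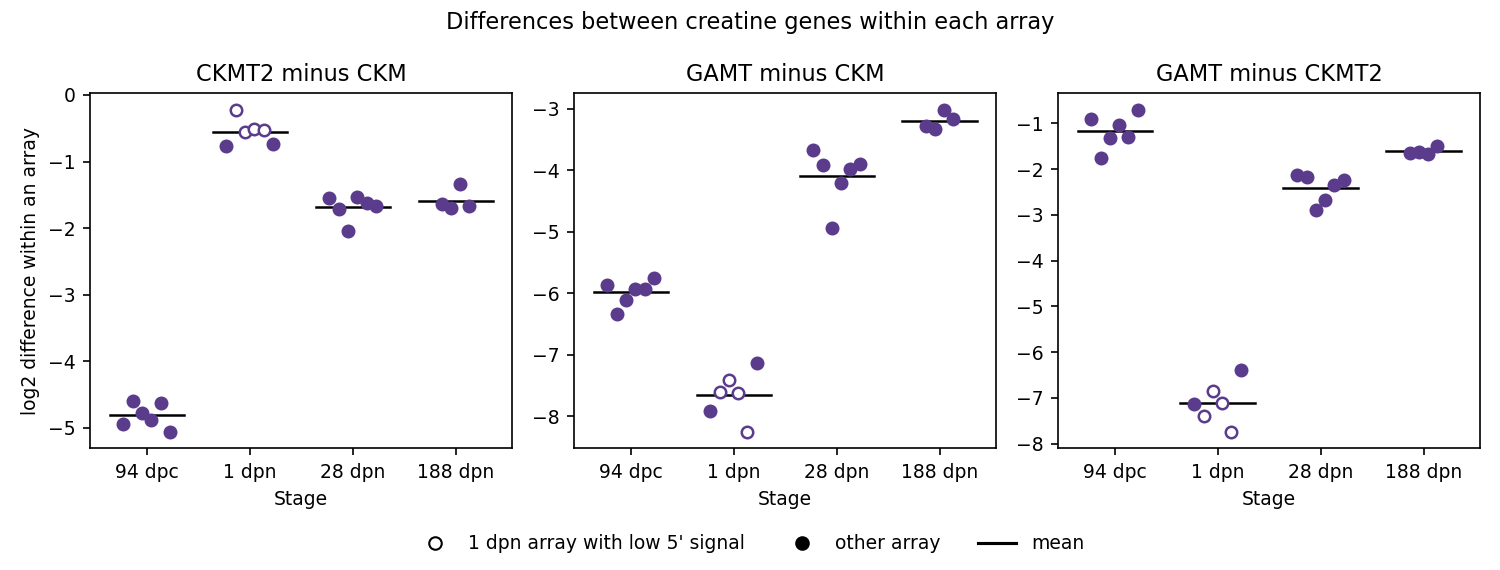
Log2 difference between the probe sets of CKMT2 and CKM, GAMT and CKM, and GAMT and CKMT2 within each array, by stage. Points are animals, lines are stage means, and open circles are the 1 dpn arrays with low 5′ signal. GAMT minus CKMT2 was lowest at 1 dpn, at -7.74 to -6.39, and CKMT2 minus CKM was highest there, at -0.76 to -0.22.

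Other genes of creatine supply and use were measured with 1 probe set each. The creatine transporter SLC6A8 averaged 692 at 94 dpc, 1016 at 1 dpn, 1400 at 28 dpn and 2148 at 188 dpn. It was 3.04-fold higher at 188 dpn than at 94 dpc (log2 1.60, SE 0.23, adjusted p = 8.1e-06), with 188 dpn values of 1811, 1835, 2551 and 2395 against 571 to 787 at 94 dpc. No single step passed the test: the changes were 0.46 at 1 dpn against 94 dpc (adjusted p = 0.0978), 0.55 at 28 dpn against 1 dpn (adjusted p = 0.0624) and 0.60 at 188 dpn against 28 dpn (adjusted p = 0.0973). With the 1 dpn arrays of even 5′ signal alone, the first of these was 0.76 (adjusted p = 0.0453) and the second 0.25 (adjusted p = 0.593). Those arrays read 1853 and 739, and without replicate 1, the brighter, the first step over the other 1 dpn arrays was 0.27 (adjusted p = 0.241). Without replicate 3 it was 0.60 (adjusted p = 0.0259).

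The brain-type kinase CKB and the ubiquitous mitochondrial kinase CKMT1A were dim. CKB averaged 259, 203, 197 and 323 over the stages in order of age, and its values at 188 dpn, 312, 93, 157 and 729, spanned those of all other stages. It did not pass the F test (adjusted p = 0.635). CKMT1A lay above background on 16 of 22 arrays, averaged 67.5, 99.6, 129 and 117 in the same order, and did not pass the F test (adjusted p = 0.376). GATM and CKMT1B were not analysed here.

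The 5 named genes closest to each creatine gene were taken by the root mean square difference of their centred log2 stage means, among 6085 genes whose highest stage mean lay above background, so that a gene could be below background at the other stages. For GAMT they were GPD1 (0.30), the cytosolic glycerol-3-phosphate dehydrogenase, CYP3A29 (0.47), a cytochrome P450 that lay below background at the earlier stages, with means of 10 at 94 dpc and 8 at 1 dpn, CMBL (0.50), a hydrolase, ALDH2 (0.52), the mitochondrial aldehyde dehydrogenase, and CMYA5 (0.53), a protein of the muscle costamere. The median gene lay 2.06 away. GPD1 averaged 2563, 2263, 19159 and 26789 over the stages in order of age, and ALDH2 averaged 3592, 1418, 10672 and 26685. Of these 5 genes, 4 were also among the 5 closest when the likeness was taken over the 22 arrays. Both measures use the same arrays, here and for the genes below, so their overlap is no independent check.

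For CKMT2 the 5 were TP53INP2 (0.38), a factor of autophagy, PDK4 (0.45), which inhibits pyruvate dehydrogenase, LOC100153598 (0.53), ATP2A1 (0.55), the calcium pump of fast fibres, and TRNP1 (0.63), which averaged 33 at 94 dpc and so lay below background there, with a median gene at 1.99. TP53INP2, like CKMT2 over all arrays, had its highest mean at 1 dpn (151, 3462, 1467 and 1625 in order of age). For CKMT2 the change at 28 dpn against 1 dpn was -0.03 on the 1 dpn arrays with even 5′ signal. For TP53INP2 that change is not given here. PDK4 averaged 300, 10373, 8142 and 11812. Of the 5, 4 were again among the closest over the 22 arrays.

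For CKM the distances were smaller, as was its own change: NOS2 (0.04), an inducible nitric oxide synthase, GSTZ1 (0.05), an enzyme of tyrosine breakdown, ARNT (0.05), a partner of hypoxia and dioxin receptors, MYL1 (0.06), a myosin light chain of fast fibres, and ECD (0.06), with a median gene at 0.58. MYL1 alone was also among the 5 closest over the 22 arrays, where MYLPF, TNNC2, SLN and TNNI2, all genes of the fast contractile apparatus or its calcium handling, took the other places. MYL1 averaged 45260, 67379, 85861 and 79594 over the stages in order of age, whereas ARNT averaged 54 at 94 dpc, below background, and at most 126. The creatine genes were further from one another than from these genes, at 1.60 for CKM and CKMT2, 1.72 for CKM and GAMT and 2.37 for CKMT2 and GAMT.

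**Figure D4:**
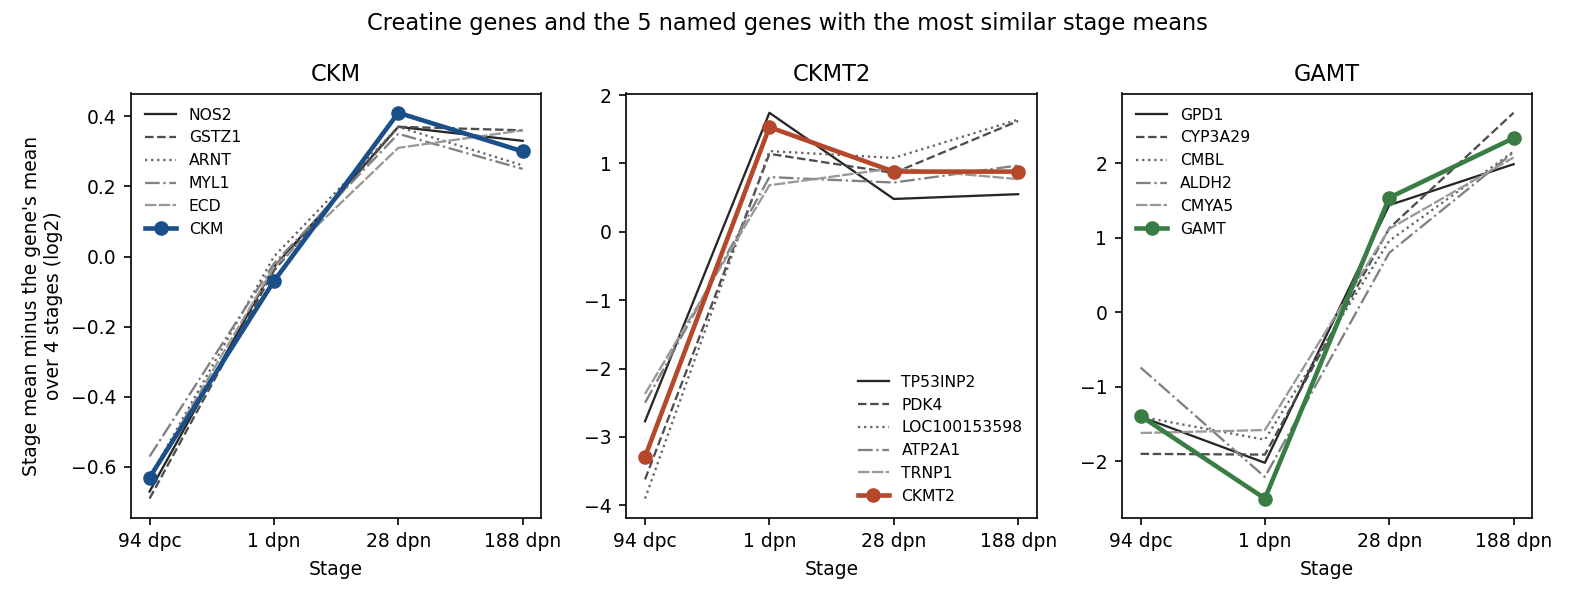
Stage means of CKM, CKMT2 and GAMT (coloured) and of the 5 named genes most like each (grey), as log2(signal + 16) minus the mean of the gene over the 4 stages. The vertical axes differ between panels. The lowest stage was 1 dpn for GAMT and GPD1, and 94 dpc for CKMT2 and CKM and the genes beside them.

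Genes that make, use up or recycle the substrates of creatine synthesis were called in both directions. The lists hold consumers as well as suppliers, so their counts do not show supply going up or down. The counts that follow are in the deposited scaling unless another setting is named. In it, 10.9% of all probe sets were called higher and 21.7% lower in the first step. These shares were 13.9% and 8.39% in the second step, and 3.65% and 8.2% in the third. The split of all calls moved with the scaling. In the first step 33.5% of calls were higher as deposited, 47.4% after quantile normalization and 57.7% with arrays centred on their medians. In the second step 62.4%, 49.8% and 39.7% were higher, in the same order. Of 10 measured genes of methyl donor supply and recycling, 1 rose at 1 dpn against 94 dpc, 2 rose and 1 fell at 28 dpn against 1 dpn, and 1 rose at 188 dpn against 28 dpn. Their median changes were 0.34, -0.03 and 0.05, beside -0.08, 0.10 and -0.12 over all probe sets, and the second was 0.01 after quantile normalization. AHCY, which removes the S-adenosylhomocysteine that GAMT leaves behind, averaged 1397 at 1 dpn and 636 at 94 dpc (log2 1.05, SE 0.21, adjusted p = 0.000477). ADK, which removes the adenosine that follows, averaged 304 at 28 dpn and 133 at 1 dpn (log2 1.11, adjusted p = 8.4e-05), with a change of 0.71 on the even arrays (adjusted p = 0.0291). GNMT, another consumer of the methyl donor, averaged 176 at 188 dpn and 43 at 28 dpn, where 1 of 6 arrays lay above background (log2 1.70, adjusted p = 0.0272), and lost this call in 5 of 10 fits without 1 animal.

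The list of arginine and glycine supply held 11 measured genes, among them consumers of arginine such as ARG2. Of these 11, 4 rose at 1 dpn against 94 dpc, and 1 rose and 4 fell at 28 dpn against 1 dpn. At 188 dpn against 28 dpn 1 rose and 2 fell. The median changes were 0.47, -1.17 and 0.13, and the first 2 were 0.35 and -0.21 with the even 1 dpn arrays alone. On the 1 dpn arrays with even 5′ signal, where 25.4% of all probe sets were called in the first step (7.79% higher, 17.6% lower) and 16.6% in the second (11.2% higher, 5.39% lower), 1 rose in the first step and 2 fell in the second. ARG2, the mitochondrial arginase, averaged 1964 at 1 dpn and 203 at 94 dpc with overlapping values (log2 2.59, SE 0.77, adjusted p = 0.0118), and its change on the even arrays was 1.40 (adjusted p = 0.423). PSPH, the last enzyme of serine synthesis, averaged 2380 at 1 dpn and 412 at 94 dpc (log2 1.91, adjusted p = 0.0338), against 0.15 on the even arrays (adjusted p = 0.929), and its call was lost in 9 of 12 fits without 1 animal. DDAH1, which clears methylated arginine, averaged 896 at 188 dpn and 1944 at 28 dpn (log2 -2.01, adjusted p = 0.0124), with overlapping values. The DDAH1 call was lost without replicate 2 (-1.47) or 3 (-1.57) at 188 dpn.

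Most of the carriers and pores that work beside CKMT2 were higher at 1 dpn than in the fetus in the deposited scaling. The list held 7 measured genes of adenine nucleotide exchange and the outer membrane pore, among them the mitochondrial phosphate carrier SLC25A3, which is neither. Of these 7, 5 rose and 1 fell at 1 dpn against 94 dpc, with a median change of 0.83 against -0.08 over all probe sets. SLC25A3 was 1 of the 5 (log2 0.85, adjusted p = 2.4e-05). On the 1 dpn arrays with even 5′ signal 4 of the 7 rose. After quantile normalization 3 rose and 1 fell. The gene that fell in the deposited scaling was SLC25A6 (log2 -0.55, adjusted p = 0.034). On the even arrays its change was -0.09 (adjusted p = 0.834) and did not pass the test. SLC25A5 did not pass the test with all arrays (log2 0.36, adjusted p = 0.498). SLC25A4, the ATP/ADP carrier of muscle, averaged 48061 at 1 dpn and 18124 at 94 dpc (log2 1.38, SE 0.15, adjusted p = 5.9e-07). VDAC1, a pore of the outer membrane, averaged 29563 at 1 dpn and 13563 at 94 dpc (log2 1.11, adjusted p = 3.4e-06). These rises, 2.61-fold and 2.16-fold, shrank to log2 0.79 for SLC25A4 and 0.47 for VDAC1 after quantile normalization and remained called. SLC25A6, another carrier of the same family, averaged 5655 at 188 dpn and 17747 at 28 dpn (log2 -1.66, adjusted p = 5.5e-05).

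A list of other genes of adenylate turnover held 4 measured enzymes and 7 measured subunits of the AMP-activated kinase, which senses the energy state. Of these 11, 5 rose and 2 fell at 1 dpn against 94 dpc, and 6 rose and 2 fell at 28 dpn against 1 dpn, with median changes of 0.49 and 0.63. The counts of the second step depended on the scaling: 5 rose and 4 fell after quantile normalization, and 3 rose and 4 fell with arrays centred on their medians. The split of all calls in that step moved likewise, from 62.4% higher as deposited to 49.8% and 39.7%. On the even 1 dpn arrays 4 rose in each step, while 1 fell in the first and 2 in the second. The median changes there were 0.05 and 0.81. AMPD1, the AMP deaminase of muscle, averaged 30297 at 28 dpn and 9778 at 1 dpn (log2 1.85, adjusted p = 0.000253), with a change of 2.84 on the even arrays. ADSSL1, the muscle adenylosuccinate synthase that follows it in the purine nucleotide cycle, averaged 25197 at 28 dpn and 4791 at 1 dpn (log2 2.47, adjusted p = 8.4e-07). PRKAB2, a subunit of the AMP-activated kinase, averaged 454 at 1 dpn and 136 at 94 dpc (log2 1.56, adjusted p = 4.0e-05).

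A list of M-band partners of CKM held 4 measured genes: MYOM1, MYOM2, FHL2 and TTN. Not all of their proteins need bind CKM itself. Of these, 2 fell at 1 dpn against 94 dpc, and 3 rose and 1 fell at 28 dpn against 1 dpn. The median changes were -0.55 and 1.00. On the 1 dpn arrays with even 5′ signal 3 fell in the first step, and 3 rose and 0 fell in the second. MYOM2, a structural protein of the M-band in fast fibres, averaged 37924 at 28 dpn and 9152 at 1 dpn (log2 2.19, SE 0.25, adjusted p = 2.1e-06). MYOM1 averaged 16170 at 28 dpn and 9041 at 1 dpn with overlapping values (log2 1.03, adjusted p = 0.0105), and its change on the even arrays was 1.93 (adjusted p = 0.000102). FHL2, an adaptor that docks metabolic enzymes at the sarcomere, averaged 853 at 1 dpn and 2316 at 94 dpc (log2 -1.47, adjusted p = 0.000422).

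Of the ATPases that creatine kinase serves, 4 were measured: 2 rose at 1 dpn against 94 dpc and 1 at 28 dpn against 1 dpn, with median changes of 0.81 and 0.52. In the first step 1 of 4 rose after quantile normalization and 4 of 4 with arrays centred on their medians. ATP2A1 averaged 19175 at 1 dpn and 1994 at 94 dpc (log2 3.30, SE 0.21, adjusted p = 5.4e-10), a 9.83-fold rise in the step in which CKMT2 rose. ATP2A2, the calcium pump of slow fibres, averaged 33037 at 1 dpn and 15938 at 94 dpc with overlapping values (log2 0.97, adjusted p = 0.0033), and on the even arrays its change was 0.46 (adjusted p = 0.328). MYH2, a fast myosin heavy chain, averaged 74914 at 28 dpn and 12005 at 1 dpn (log2 2.76, adjusted p = 4.7e-07).

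Genes listed as regulators of muscle creatine kinase genes did not follow one course. They were not all transcription factors of these genes: PPARGC1A is a coactivator and TFAM acts on mitochondrial DNA. TFAM counts among those called lower at 1 dpn against 94 dpc (log2 -0.51, adjusted p = 0.0492). Of 8 measured, 1 rose and 5 fell at 1 dpn against 94 dpc, 3 rose and 1 fell at 28 dpn against 1 dpn, and 2 rose and 1 fell at 188 dpn against 28 dpn, with median changes of -0.66, 0.54 and 0.21. The falls of the first step depended on the scaling: 1 rose and 3 fell after quantile normalization, and with arrays centred on their medians MEF2D alone was called, higher. In the second step, 1 was called with arrays centred, lower. MEF2D averaged 5830 at 1 dpn and 2452 at 94 dpc (log2 1.19, adjusted p = 6.0e-05) and was lower at 28 dpn than at 1 dpn (log2 -1.12, adjusted p = 0.000233). MYOD1, a myogenic factor, averaged 347 at 188 dpn and 969 at 28 dpn (log2 -1.40, adjusted p = 0.0122). MYF6, another myogenic factor, averaged 6119 at 188 dpn and 1209 at 28 dpn (log2 2.34, adjusted p = 0.000207).

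**Figure D5:**
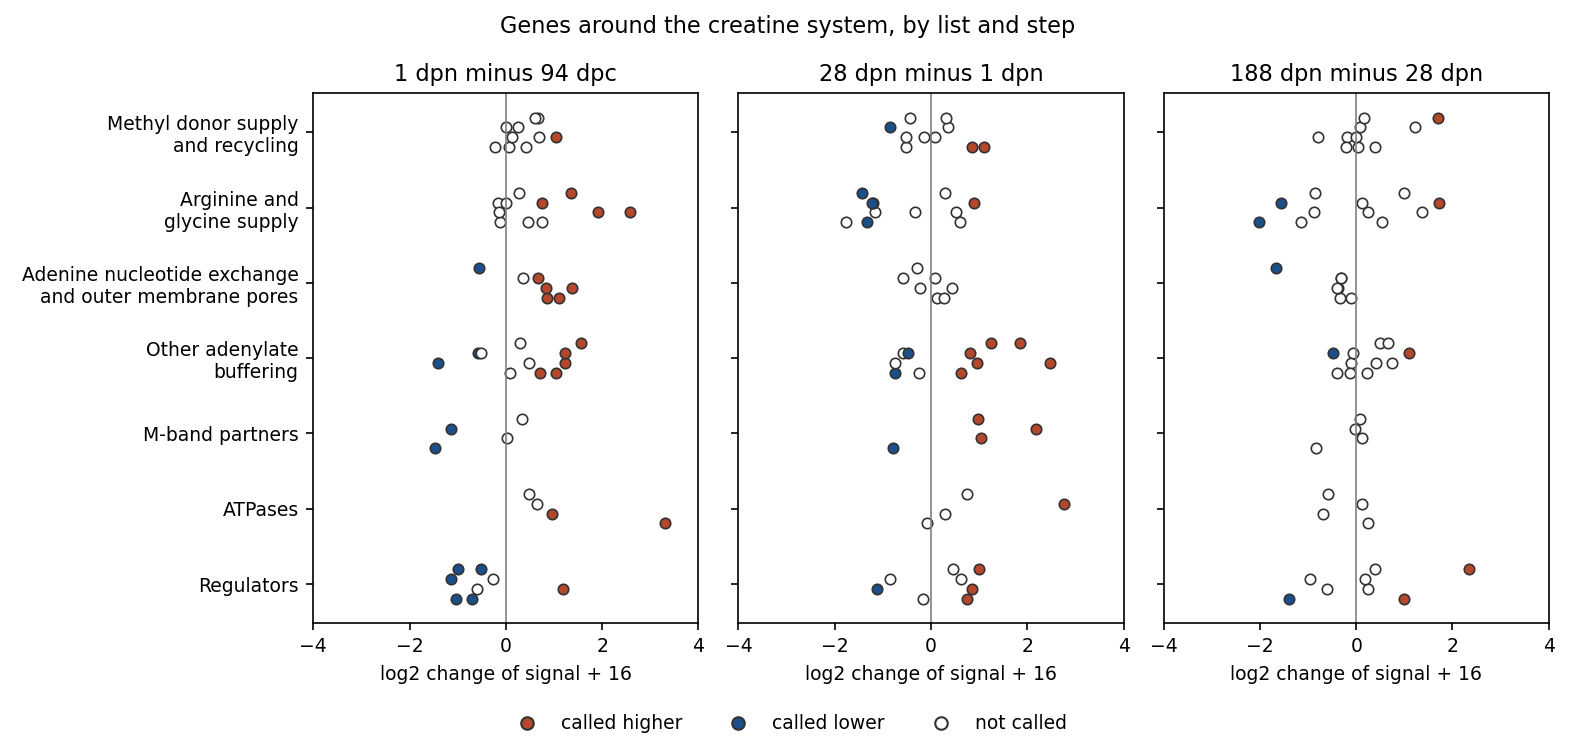
Change in log2(signal + 16), later minus earlier stage, of each measured gene in 7 lists around the creatine system, in the 3 steps between successive stages. Each point is a gene by its brightest probe set, red where it was called higher, blue where called lower and white where not called. Points of adenine nucleotide exchange and pores lie mostly to the right in the first panel, with 5 of 7 called higher, among them the phosphate carrier SLC25A3.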

How the data were processed

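The authors deposited linear signal intensity values of 24123 probe sets on Affymetrix porcine arrays, 1 array for each of 22 samples. The submitters' processing notes name GCOS 1.1.1. Each array had been scaled to a trimmed mean of 500 (2% cut at each end). No source used here names a genome build, and no coordinates or sequences were used. Without 124 controls, 23999 probe sets were tested, of which 10069 had 1 symbol, 198 several and 13732 none. Symbols were updated through the RefSeq table, which held the gene identifier of 9961 of them and lacked 108. Probe sets whose names end in _a_at, here CKMT2 and GAMT, can read several transcripts of a gene.

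Values were taken as log2(signal + 16), which understates changes of dim genes, and fitted in limma 3.58.1 (R 4.3.3) with 1 mean per stage over all 22 arrays. Benjamini-Hochberg adjustment ran over all probe sets. The fit was tested on simulated data. Background was the 95th percentile of 23 control probe sets, 69.7. No 2 arrays held identical values. The number of arrays, 6, 6, 6 and 4, limits precision. Each gene is read by its brightest probe set. The members, the gene lists and the tests were chosen with earlier results of these data known. Named genes were all measured genes of creatine synthesis, uptake and kinases, up to 3 called genes with the largest change per other list, and the 5 most alike per member. Alternatives were a pseudocount of 1, quantile normalization, centring on the median, a filter on dim probe sets, trended variances, only the stages compared, array weights, the GAPDH ratio as a covariate and each animal left out. Fits on 1 dpn arrays of even or low 5′ signal and the differences within an array were added after the data were seen.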

Additional observations from a re-analysis of the deposited data

Results flagged for a closer look

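Within each stage the highest and lowest animal of 6 creatine genes was set against the others by Dixon's test, in 24 groups, of which chance alone gives about 1 in 20. In 3 groups an animal stood apart. GAMT was lowest in replicate 3 at 28 dpn, with a signal of 2434 against 4679 to 6584 in the other 5. CKB was highest in replicate 2 at 28 dpn, at 236 against a median of 192 for the stage. CKMT1A was lowest in replicate 4 at 188 dpn, at 16, which lies below background.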

How the results depend on the processing

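Of 333 results of CKM, CKMT2 and GAMT under other settings, 290 kept their direction and call, 32 lost the call and 11 changed sign. The large changes, GAMT in the first 2 steps and over the whole period and CKMT2 at 1 dpn or 188 dpn against 94 dpc, kept both in every setting run. The cause of the other changes was not tested. GAMT at 188 dpn against 28 dpn lost its call with a pseudocount of 1 (0.80), quantile normalization (0.68) and only the stages compared (0.80), and ranged over 0.62 to 0.91 with an animal left out. CKM at 1 dpn against 94 dpc was -0.02 after quantile normalization, 0.18 with the GAPDH covariate and 0.13 on even 1 dpn arrays. CKM at 28 dpn against 1 dpn was 0.24 after quantile normalization, 0.29 centred, 0.48 with only the stages compared, 0.38 with array weights and 0.27 on the low 5′ arrays, and 0.36 to 0.54 with an animal left out. CKM at 188 dpn against 28 dpn was 0.01 (quantile) and 0.10 (centred), at 188 dpn against 94 dpc 0.23 (quantile), and its F test gave 0.0994 (quantile). CKMT2 at 28 dpn against 1 dpn was -0.66 with only the stages compared, -0.18 with the covariate, -0.03 on even arrays and -0.82 to -0.57 with an animal left out. CKMT2 at 188 dpn against 28 dpn was 0.14 (quantile), 0.20 (centred), 0.06 (covariate) and -0.09 to 0.06 with an animal left out. CKB, called in no comparison, was 0.03 at 1 dpn against 94 dpc (quantile), 0.01 (covariate), 0.06 (even arrays) and -0.09 to 0.03 (animal left out) at 28 dpn against 1 dpn, -0.21 to 0.71 at 188 dpn against 28 dpn, and 0.25 (quantile), 0.21 (centred) and -0.57 to 0.36 (animal left out) at 188 dpn against 94 dpc. CKMT1A at 28 dpn against 1 dpn was -0.24 (covariate) and -0.30 (even arrays), and at 188 dpn against 28 dpn -0.57 to 0.27 with an animal left out. With only the stages compared, 3347 probe sets were called at 28 dpn against 1 dpn, against 5357. The share of calls that were higher was 33.5, 62.4, 30.8 and 37.7% in the values the authors gave, 47.4, 49.8, 44.2 and 48.6% on the quantile scale and 57.7, 39.7, 60.1 and 56.2% centred, for the 3 steps and the whole period in order, with median changes of -0.08, 0.10, -0.12 and -0.07, of 0.05, -0.04, 0.02 and 0.06, and of 0.18, -0.09, 0.08 and 0.20. No paired analysis was possible because replicate numbers follow accession order and no label ties an animal to its gilt. Each creatine gene had 1 probe set, so none could be exchanged for another.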
